A study of Sus scrofa with 60 samples.

Results

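The liver response to obstruction of the bile ducts was examined in neonatal pigs that received parenteral nutrition (PN) with a soy lipid emulsion (SLE). Every library with the diet label IL was taken, 11 from pigs with bile duct ligation (BDL) and 10 from pigs with sham surgery. These are 21 of the 60 libraries of the study, and all 30335 named genes of its count table were compared between them. Piglets of both sexes came from sows of mixed Landrace and Hampshire breeding and were delivered by cesarean section shortly before term. SLE-BDL pigs had both the cystic and the common bile duct tied off, whereas in SLE-sham pigs the abdomen was opened and the liver touched without closing a duct. Pigs of both groups carried a jugular catheter, received PN with SLE (Intralipid, labelled IL) as their diet, and gave their liver at day 14. The sham pigs are therefore controls for the ligation only, since they share the preterm delivery, the catheter, the PN and the soy lipid with the ligated pigs. The other 39 libraries were 22 from enterally fed (ENT) pigs and 17 from pigs given PN with a multicomponent lipid emulsion (MLE). All pigs of the study received PN at first, and ENT pigs were then moved stepwise to a milk replacer formula. The 39 libraries entered the model for its estimate of the spread and were used at the end to ask where the response of SLE pigs differed.

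Hepatocytes make bile acids from cholesterol and pump them into bile canaliculi, from which cholangiocytes, the lining cells of the bile ducts, carry them towards the gut. When the ducts are closed, bile acids are retained in the liver. A receptor for bile acids in hepatocytes (FXR, the product of NR1H4) and a hormone from the ileum (FGF19) both repress CYP7A1, the rate-limiting enzyme of their synthesis. Obstructed livers are known for the ductular reaction, in which cells with cholangiocyte keratins multiply at the portal tracts, and for scar matrix laid down by activated stellate cells and portal fibroblasts. PN with soy lipid is itself associated with cholestasis in infants.

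Liver RNA was sequenced, and a library of the 21 SLE pigs held 14469788 to 19013668 counted reads (median 17268428). Of the named genes 23819 had a count in an SLE pig and 16210 passed the filter on low counts of the model over all 60 pigs. Values per pig are given as CPM, the counts of a gene scaled to a common library size with TMM factors, and differences as the log2 fold change of SLE-BDL over SLE-sham with its standard error (SE). Adjusted p stands throughout for the quasi-likelihood test of edgeR, two-sided, with Benjamini-Hochberg adjustment over the 16210 genes. A gene is said to have risen or fallen where its adjusted p was under 0.05 and its change over 2-fold. The summed CPM of 10 hepatocyte markers, ALB, APOA1 and APOB among them, was 100259 to 131325 CPM (median 110493) in SLE-sham and 76398 to 150411 CPM (median 113479) in SLE-BDL pigs, so the tissue carried its defining markers in both groups.

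Some features of the libraries touch the results. The identifier of a pig includes a number, and its meaning is not given in the sources used here. SLE-BDL replicates 1 to 5 carry 1 number that no SLE-sham pig carries, called the unshared number here (5 ENT-sham and 3 ENT-BDL pigs carry it too), while the other 6 SLE-BDL pigs share their numbers with 8 of the SLE-sham pigs. What goes with this number and what goes with the ligation cannot be told apart in these 5 pigs, so results were also computed with a block for the number (the identifier block) and without the 5 pigs, and those values are given beside the genes examined singly that then no longer passed a threshold they had passed. Over genes, SLE-BDL and SLE-sham pigs that share a number deviated from their group means with a median correlation of 0.129 (13 pairs), against -0.0225 for those with different numbers (97 pairs). SLE-sham replicates 9 and 10 carry the same identifier, but they differed from each other more (chi-square per degree of freedom 32.7) than the closest of the other 99 pairs within these groups (22.6) and less than the median pair (57.6), and both were kept. Outside the SLE pigs, the libraries of ENT-sham replicate 2 and of ENT-BDL replicate 1 were far closer (1.9) than any of the other 1769 pairs of libraries (lowest 15.5), although their labels give opposite surgeries. They enter the estimate of the spread, and without them 273 genes were called in place of 241.

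Ligation was followed by more rises than falls. In SLE-BDL against SLE-sham livers 194 genes rose (1.20% of the genes tested) and 47 fell (0.290%), together 1.49%. At any size of change 482 genes passed the adjusted p with higher values (2.97%) and 254 with lower values (1.57%). Over all genes tested 8305 had a positive and 7905 a negative log2 fold change, and the median was 0.01. The 194 genes that rose included CYP7A1 of bile acid synthesis, epithelial and cholangiocyte genes, matrix and matrix enzyme genes, chemokines and oxygen-sensing genes. In the model with the identifier number as a block 221 genes were called (1.36%), of which 161 were among the 241. Without the 5 pigs of the unshared number, 169 genes were called, and 121 of the 241 were among them.

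**Figure D1:**
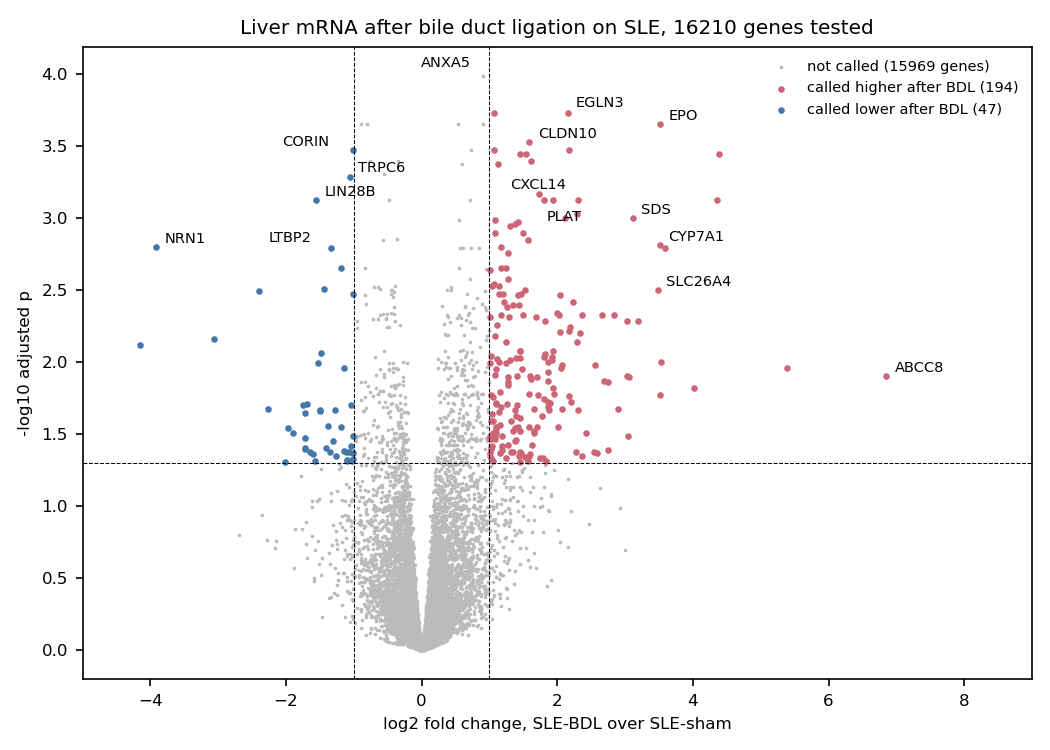
Each point is 1 of the 16210 genes tested in SLE-BDL against SLE-sham livers, with the log2 fold change on the x axis and the negative log10 of the adjusted p on the y axis. The 194 genes that rose are red, the 47 that fell are blue and the others are grey. Rises reach further from 0 than falls, with ABCC8 at the right edge at 6.85.

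Among genes of bile acid synthesis, CYP7A1 (chromosome 4, 74343101 to 74372628 on Sscrofa11.1) was the one that rose. It lay at 0 to 2.74 CPM (median 0.497) in SLE-sham pigs and 2.3 to 33.6 CPM (median 4.5) in SLE-BDL pigs (log2 fold change 3.51 ± 0.69 (SE), adjusted p = 0.00155). The groups overlapped, and 8 of 11 SLE-BDL pigs were above every SLE-sham pig. The highest values, 33.6, 21.5 and 15.2 CPM, belonged to SLE-BDL replicates 1, 3 and 4, all with the unshared number. With the number as a block the log2 fold change was 3.01 (adjusted p = 0.0132), and without the 5 pigs it was 2.51 (adjusted p = 0.0526). The 14 tested genes of bile acid synthesis and conjugation held no other rise and no fall. Of all genes tested 1.20% rose and 0.290% fell. The median of the 14 was -0.10, against 0.01 over all genes. CYP8B1, the 12-alpha-hydroxylase that makes cholic acid, had a log2 fold change of 1.26 and CYP27A1, which opens the alternative pathway, one of 0.03, neither past the threshold. AMACR and ACOX2, which shorten the side chain in peroxisomes, were lower by less than 2-fold. AMACR ranged from 45.6 to 84.9 CPM (median 60.2) in SLE-sham pigs and 32.1 to 58.1 CPM (median 38.8) in SLE-BDL pigs (log2 fold change -0.55 ± 0.14 (SE), adjusted p = 0.0121), with 8 SLE-BDL pigs below every SLE-sham pig. Its value was -0.46 (adjusted p = 0.0617) with the identifier block. In ACOX2 the log2 fold change was -0.31 ± 0.10 (adjusted p = 0.0491), and -0.21 (adjusted p = 0.224) with the block. When the 5 pigs of the unshared number were left out, ACOX2 was at -0.25 (adjusted p = 0.291) and AMACR at -0.43 (adjusted p = 0.178).

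None of the 17 tested genes of the list of bile acid and sterol transport passed the adjusted p. They had a median log2 fold change of -0.03, with the values spread from -0.53 (SLCO1A2) to 1.07 (SLC51A, a subunit of the basolateral exporter). ABCB11, the canalicular bile salt export pump, lay at 379 to 757 CPM (median 557) in SLE-sham pigs and 282 to 1297 CPM (median 428) in SLE-BDL pigs (log2 fold change -0.17, adjusted p = 0.64). SLC10A1, which takes bile acids up from blood, ranged from 162 to 358 CPM (median 238) in SLE-sham pigs and 112 to 429 CPM (median 279) in SLE-BDL pigs (0.20, adjusted p = 0.537). In both genes the groups overlapped over most of their range. Of the 16 tested genes of bile acid sensing 1 rose, against 1.20% of all genes, MAFF, a small MAF protein described with the stress genes. NR1H4 lay at 71.8 to 96.2 CPM (median 86.6) in SLE-sham pigs and 62.6 to 85.1 CPM (median 80.7) in SLE-BDL pigs (-0.13, adjusted p = 0.272), and NR0B2, the repressor that FXR induces, had a log2 fold change of -0.15. KLB, the co-receptor through which FGF19 acts on hepatocytes, was higher by less than 2-fold (log2 fold change 0.54 ± 0.15 (SE), adjusted p = 0.0259, and 0.47 (adjusted p = 0.0742) with the identifier block). NPC1L1, a transporter that takes up cholesterol from bile, is in none of the lists and was chosen after its values were seen. It rose, at 3.63 to 10.3 CPM (median 4.83) in SLE-sham pigs and 5.22 to 33 CPM (median 20.9) in SLE-BDL pigs, with 10 SLE-BDL pigs above every SLE-sham pig (log2 fold change 1.73 ± 0.32 (SE), adjusted p = 0.000687). Without those 5 pigs of the unshared number, KLB was at 0.36 (adjusted p = 0.307).

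Of 24 tested cholangiocyte and ductular genes 5 rose (KRT7, BICC1, ANXA13 and CDH6 among them), against 1.20% of all genes, and none fell. With the identifier block 8 rose, where 1.36% of all genes were called in either direction. At any fold 7 passed the adjusted p, against 2.97% of all genes with higher and 1.57% with lower values. A positive log2 fold change was found in 21, against 8305 of 16210 over all genes, and the median was 0.59, against 0.01. KRT7, a keratin of bile ducts (chromosome 5, 17553192 to 17570582), ranged from 4.28 to 12.2 CPM (median 5.58) in SLE-sham pigs and 7.61 to 31.6 CPM (median 15.4) in SLE-BDL pigs (log2 fold change 1.46 ± 0.35 (SE), adjusted p = 0.00942). The groups overlapped, with 8 of 11 SLE-BDL pigs above every SLE-sham pig, and without the 5 pigs of the unshared number the value was 1.16 (adjusted p = 0.119). BICC1, an RNA-binding protein of tubular epithelia, ranged from 3.48 to 6.67 CPM (median 5.29) in SLE-sham pigs and 5.95 to 18.6 CPM (median 12.7) in SLE-BDL pigs (log2 fold change 1.298 ± 0.25 (SE), adjusted p = 0.00115). In BICC1 9 SLE-BDL pigs were above every SLE-sham pig. ANXA13, an epithelial annexin, had a log2 fold change of 1.04 (adjusted p = 0.00295), and CDH6, a cadherin, one of 1.63 (adjusted p = 0.0375). They were called in 15 and in 10 of the 21 fits that leave out 1 pig. The keratins shared with hepatocytes were higher by less than 2-fold, KRT18 by 0.62 (adjusted p = 0.00652) and KRT8 by 0.48 (adjusted p = 0.0296) on the log2 scale. In bulk tissue more cells of a type and more RNA per cell cannot be told apart. The summed CPM of the list was 1298 to 1754 CPM (median 1475) in SLE-sham and 1499.8 to 2844 CPM (median 1787) in SLE-BDL pigs. With the number as a block, ANXA13 was at 0.90 (adjusted p = 0.0145). In the fit without the 5 pigs, CDH6 was at 1.90 (adjusted p = 0.0566) and ANXA13 at 0.94 (adjusted p = 0.025).

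SOX9, MMP7 and TGFB1 are the other liver mRNAs that the study measured by qPCR, and none passed the adjusted p in SLE pigs. MMP7, a matrix metalloproteinase of cholangiocytes, lay at 9.86 to 29.8 CPM (median 20.4) in SLE-sham pigs and 22.8 to 99 CPM (median 65) in SLE-BDL pigs (log2 fold change 1.49 ± 0.54 (SE), adjusted p = 0.0995). All but 1 of the SLE-BDL pigs were above every SLE-sham pig. Its side of the threshold differed between models. The adjusted p was 0.0351 with the identifier block and 9.31e-05 without the 2 matching ENT libraries, at log2 fold changes of 1.49 and 1.49. When only the 21 SLE pigs were fitted, the adjusted p was 0.00126 by edgeR and 2.14e-08 by DESeq2. SOX9, a transcription factor of biliary and progenitor cells, ranged from 3.37 to 11.9 CPM (median 7.81) in SLE-sham pigs and 4.54 to 20.6 CPM (median 13.8) in SLE-BDL pigs (log2 fold change 0.84 ± 0.29 (SE), adjusted p = 0.0918), and 8 SLE-BDL pigs were above every SLE-sham pig. The value of SOX9 was 1.08 (adjusted p = 0.0153) with the identifier block. TGFB1, the main fibrogenic cytokine, lay at 29.5 to 39.9 CPM (median 33.8) in SLE-sham pigs and 33.3 to 59.3 CPM (median 38.5) in SLE-BDL pigs (log2 fold change 0.24 ± 0.13 (SE), adjusted p = 0.327), and most of the range was shared by the groups.

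Of 21 tested tight junction genes 2 rose, against 1.20% of all genes, both of them claudins, the strand proteins of the junction. CLDN10 (chromosome 11, 65027706 to 65145002) ranged from 2.5 to 7.05 CPM (median 5.67) in SLE-sham pigs and 10.1 to 26.9 CPM (median 15.1) in SLE-BDL pigs (log2 fold change 1.59 ± 0.27 (SE), adjusted p = 0.000298). Every SLE-BDL pig was above every SLE-sham pig, and the gene was called in all 21 fits that leave out 1 pig. CLDN6, a claudin of fetal and stem cell epithelia, lay at 0.649 to 3.68 CPM (median 1.62) in SLE-sham pigs and 2.58 to 9.25 CPM (median 7.49) in SLE-BDL pigs (log2 fold change 1.86 ± 0.46 (SE), adjusted p = 0.0117), with 9 SLE-BDL pigs above every SLE-sham pig. CLDN7, MARVELD2 and TJP3 passed the adjusted p at less than 2-fold, with log2 fold changes of 0.80, 0.58 and 0.55. Without the 5 pigs they were at 0.82 (adjusted p = 0.116), 0.51 (adjusted p = 0.0956) and 0.64 (adjusted p = 0.0622), and CLDN7 was at 0.74 (adjusted p = 0.0622) with the identifier block. The list had a median of 0.13, and no member was lower past the threshold. CLDN1, OCLN and TJP1, which hepatocytes carry at their canaliculi, had log2 fold changes of -0.13, 0.09 and 0.03.

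In 9 genes (0.0555% of those tested) all 11 SLE-BDL pigs were above all 10 SLE-sham pigs, and in 3 (0.0185%) all were below. The 9 were SLC26A4, VAT1L, KRT80, CLDN10, PTK7, ANXA4, SLC25A24, ANXA5 and TEAD4. SLC26A4, an anion exchanger, ranged from 0.0562 to 0.422 CPM (median 0.174) in SLE-sham pigs and 0.604 to 4.62 CPM (median 2.34) in SLE-BDL pigs (log2 fold change 3.48 ± 0.74 (SE), adjusted p = 0.00318). VAT1L lay at 0.0721 to 0.506 CPM (median 0.227) in SLE-sham pigs and 0.537 to 5.75 CPM (median 2.35) in SLE-BDL pigs (log2 fold change 3.19 ± 0.72 (SE), adjusted p = 0.00522). KRT80, an epithelial keratin, ranged from 0.144 to 0.612 CPM (median 0.446) in SLE-sham pigs and 1.09 to 4.77 CPM (median 2.08) in SLE-BDL pigs (log2 fold change 2.29 ± 0.43 (SE), adjusted p = 0.000941). These 3 were barely counted in sham livers, and each had at least some reads in every ligated liver. ANXA4, a calcium-dependent membrane protein of secretory epithelia, lay at 16.7 to 41.7 CPM (median 30.7) in SLE-sham pigs and 49.9 to 95.6 CPM (median 70.5) in SLE-BDL pigs (log2 fold change 1.18 ± 0.23 (SE), adjusted p = 0.00159). PTK7, a receptor of planar polarity, had a log2 fold change of 1.25 (adjusted p = 0.00223), and SLC25A24, a mitochondrial carrier, one of 1.08 (adjusted p = 0.00103). ANXA5 and TEAD4 were separated in the same way at less than 2-fold. ANXA5, which binds exposed phosphatidylserine, ranged from 52.7 to 81.6 CPM (median 69.1) in SLE-sham pigs and 87 to 189 CPM (median 139) in SLE-BDL pigs (log2 fold change 0.91 ± 0.13 (SE), adjusted p = 0.000104), and TEAD4, a partner of YAP on DNA, had a log2 fold change of 0.70 (adjusted p = 0.0102). Among the genes below, PAPPA2, a protease of IGF-binding proteins, lay at 7.32 to 13.6 CPM (median 11) in SLE-sham pigs and 1.07 to 7.24 CPM (median 5.7) in SLE-BDL pigs (log2 fold change -1.02 ± 0.22 (SE), adjusted p = 0.00337), and was called in 14 of 21 fits that leave out 1 pig. ADGRL2, an adhesion receptor, and SLC25A1, the mitochondrial citrate carrier that feeds fatty acid synthesis, were at -0.28 (adjusted p = 0.0144) and -0.41 (adjusted p = 0.0033) on the log2 scale. Among the 194 genes that rose, 22 had at least 10 of 11 SLE-BDL pigs above every SLE-sham pig. EGLN3, STX3, WNT4, ARHGEF5, CYR61 (CCN1), CTGF, NPC1L1 and GABRP were among the named members with 10. After removal of the 5 pigs with the unshared number, ADGRL2 was at -0.29 (adjusted p = 0.0681).

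**Figure D2:**
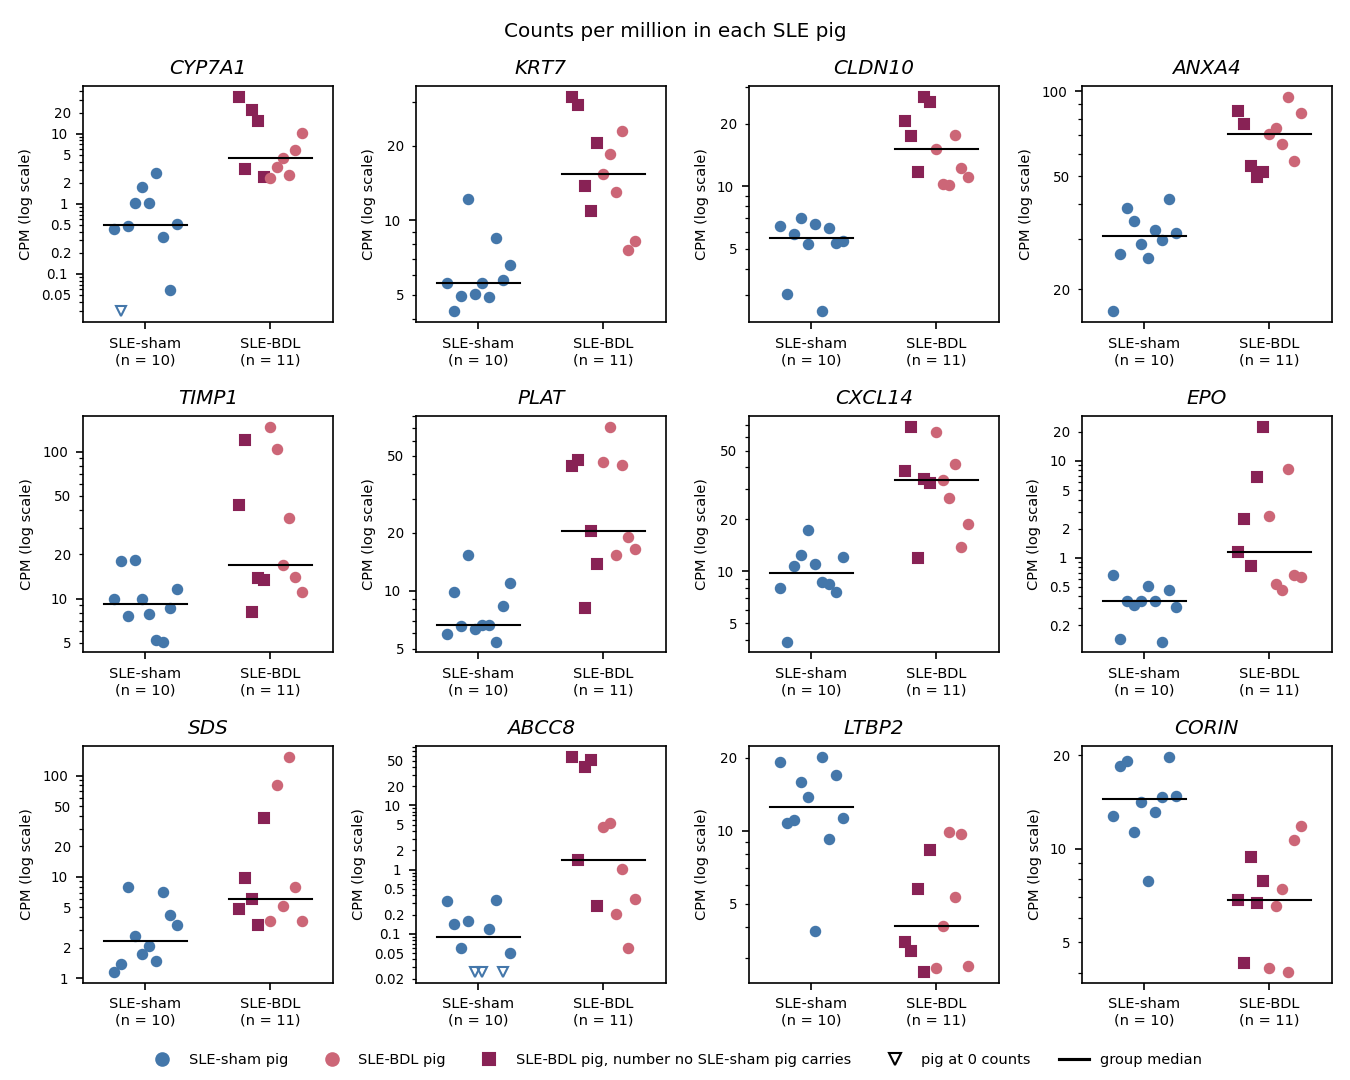
CPM of 12 genes in each of the 21 SLE pigs, on log axes, with 1 point per pig and a line at the median of each group. Dark squares are the 5 SLE-BDL pigs of the unshared number, and open triangles mark pigs without a count. CLDN10 and ANXA4 are separated between the groups, CYP7A1, KRT7, TIMP1, PLAT, CXCL14, EPO, SDS and ABCC8 rose with overlap, and LTBP2 and CORIN fell.

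Of 35 tested collagen and matrix genes 4 rose (VCAN, THBS1, COL5A3 and COL16A1), against 1.20% of all genes, none fell, 31 had a positive log2 fold change, against 8305 of 16210 over all genes, and the median was 0.47. VCAN, a large proteoglycan of provisional matrix, ranged from 3.79 to 9.63 CPM (median 6.76) in SLE-sham pigs and 6.09 to 43 CPM (median 12.1) in SLE-BDL pigs (log2 fold change 1.43 ± 0.31 (SE), adjusted p = 0.00406). THBS1, which activates latent TGF-beta, lay at 14.1 to 38.6 CPM (median 19.7) in SLE-sham pigs and 23.7 to 95.2 CPM (median 36.3) in SLE-BDL pigs (log2 fold change 1.22 ± 0.26 (SE), adjusted p = 0.00387). Both groups overlapped in these genes, with 8 SLE-BDL pigs above every SLE-sham pig in VCAN and 5 in THBS1. The rises of COL5A3 and COL16A1 were near 2-fold (1.03, adjusted p = 0.0255, and 1.00, adjusted p = 0.0341), and they were called in 16 of 21 and 11 of 21 fits that leave out 1 pig. COL1A1 and COL3A1, the chains of the main scar collagens, did not pass the threshold. COL1A1 ranged from 246 to 1017 CPM (median 459) in SLE-sham pigs and 396 to 2845 CPM (median 636) in SLE-BDL pigs (log2 fold change 0.85 ± 0.34 (SE), adjusted p = 0.141), and COL3A1 had a log2 fold change of 0.44 (adjusted p = 0.233). COL6A3 and BGN passed it at less than 2-fold, at 0.95 (adjusted p = 0.00707) and 0.59 (adjusted p = 0.018). When the 5 pigs of the unshared number were left out, COL5A3 was at 1.05 (adjusted p = 0.091), COL16A1 at 0.84 (adjusted p = 0.18) and BGN at 0.36 (adjusted p = 0.307).

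Of 24 tested enzymes that cut or cross-link matrix, and their inhibitors, 5 rose (TIMP1, PLAT, LOXL4 and MMP9 among them), against 1.20% of all genes, none fell and the median was 0.54. At any fold 10 of the 24 passed the adjusted p, against 2.97% of all genes with higher and 1.57% with lower values. TIMP1, the inhibitor of metalloproteinases, lay at 5.1 to 18.2 CPM (median 9.27) in SLE-sham pigs and 8.16 to 147 CPM (median 16.9) in SLE-BDL pigs (log2 fold change 2.23 ± 0.48 (SE), adjusted p = 0.00385). The highest values were in SLE-BDL replicates 6, 2 and 7 (147, 119 and 105 CPM), and 5 SLE-BDL pigs were above every SLE-sham pig. PLAT, the tissue plasminogen activator, ranged from 5.44 to 15.4 CPM (median 6.62) in SLE-sham pigs and 8.16 to 70.5 CPM (median 20.4) in SLE-BDL pigs (log2 fold change 1.94 ± 0.36 (SE), adjusted p = 0.00075). LOXL4, a collagen cross-linking oxidase, had a log2 fold change of 1.28 (adjusted p = 0.00485). MMP9, a gelatinase of neutrophils and macrophages, had one of 1.94 (adjusted p = 0.0152), which was 0.94 (adjusted p = 0.26) with the identifier block. HTRA3, a secreted serine protease that is in none of the lists, lay at 0.748 to 3.01 CPM (median 1.68) in SLE-sham pigs and 1.52 to 21.7 CPM (median 8.15) in SLE-BDL pigs (log2 fold change 2.31 ± 0.43 (SE), adjusted p = 0.00075), with 8 SLE-BDL pigs above every SLE-sham pig. MMP13, an interstitial collagenase chosen after its values were seen, ranged from 0 to 0.298 CPM (median 0.0572) in SLE-sham pigs and 0.116 to 5.16 CPM (median 0.816) in SLE-BDL pigs (log2 fold change 3.58 ± 0.71 (SE), adjusted p = 0.00163), at a level of few counts. Without those 5 pigs of the unshared number, MMP9 was at 0.88 (adjusted p = 0.493).

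In TGF-beta and BMP signalling CYR61 (CCN1) and CTGF (CCN2) rose and LTBP2 fell, out of 32 tested genes with a median of 0.14, against 1.20% of all genes that rose and 0.290% that fell. CYR61, a matricellular target of YAP and TGF-beta, lay at 6.52 to 15.4 CPM (median 11.3) in SLE-sham pigs and 11 to 90.7 CPM (median 21.3) in SLE-BDL pigs (log2 fold change 1.41 ± 0.27 (SE), adjusted p = 0.00107). CTGF, the connective tissue growth factor, ranged from 7.18 to 16.6 CPM (median 14.2) in SLE-sham pigs and 14.9 to 47.3 CPM (median 23.6) in SLE-BDL pigs (log2 fold change 1.01 ± 0.21 (SE), adjusted p = 0.00231). In both genes 10 of 11 SLE-BDL pigs were above every SLE-sham pig, but CTGF was close to 2-fold and was called in 14 of 21 fits that leave out 1 pig, and without the 5 pigs of the unshared number its value was 0.75 (adjusted p = 0.0725). LTBP2, a microfibril protein, lay at 3.88 to 20.1 CPM (median 12.5) in SLE-sham pigs and 2.62 to 9.93 CPM (median 4.07) in SLE-BDL pigs (log2 fold change -1.33 ± 0.27 (SE), adjusted p = 0.00163). The 20 stellate cell and myofibroblast genes had a median of 0.13 with 2 rises, against 1.20% of all genes. S100A6, a calcium-binding protein of activated stellate cells and ductular cells, ranged from 3.74 to 15.8 CPM (median 7.12) in SLE-sham pigs and 8.55 to 55.7 CPM (median 28.4) in SLE-BDL pigs (log2 fold change 1.99 ± 0.44 (SE), adjusted p = 0.0046). RGS5, a pericyte gene, had a log2 fold change of 1.15 (adjusted p = 0.0222), and 0.95 (adjusted p = 0.0557) with the identifier block. The log2 fold change of RGS5 was 1.04 (adjusted p = 0.0514) without SLE-BDL replicate 5. ACTA2, the smooth muscle actin of myofibroblasts, was at 0.61 (adjusted p = 0.0464), and at 0.59 (adjusted p = 0.121) with the block. The summed CPM of the stellate cell list was 635 to 1024 CPM (median 876) in SLE-sham and 662 to 1418 CPM (median 993) in SLE-BDL pigs. Once the number was blocked, CTGF was at 0.99 (adjusted p = 0.00417). In the fit without the 5 pigs, RGS5 was at 0.99 (adjusted p = 0.16) and ACTA2 at 0.38 (adjusted p = 0.374).

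Of 41 tested genes of the actin cytoskeleton and focal adhesions 39 had a positive log2 fold change, against 8305 of 16210 over all genes, and the median was 0.22. At any fold 10 passed the adjusted p, against 2.97% of all genes with higher and 1.57% with lower values, and 1 of these was over 2-fold, near the 1.20% of all genes that rose. That gene, ITGA3, an integrin that binds laminins, lay at 1.22 to 2.96 CPM (median 1.69) in SLE-sham pigs and 1.79 to 8.28 CPM (median 3.59) in SLE-BDL pigs (log2 fold change 1.34 ± 0.29 (SE), adjusted p = 0.00401), with 8 SLE-BDL pigs above every SLE-sham pig. ANXA2, an annexin that links actin to membranes, ranged from 68.4 to 94.7 CPM (median 77.5) in SLE-sham pigs and 81.6 to 175 CPM (median 101) in SLE-BDL pigs (log2 fold change 0.58 ± 0.12 (SE), adjusted p = 0.00163). Among other epithelial genes, WNT4, a WNT ligand, lay at 2.19 to 9.04 CPM (median 6.43) in SLE-sham pigs and 8.54 to 24.7 CPM (median 16.9) in SLE-BDL pigs (log2 fold change 1.45 ± 0.25 (SE), adjusted p = 0.000362), and STX3, an apical membrane syntaxin, at 2.83 to 5.11 CPM (median 3.37) in SLE-sham pigs and 4.44 to 27.1 CPM (median 10.3) in SLE-BDL pigs (log2 fold change 1.55 ± 0.27 (SE), adjusted p = 0.000362). In each, 10 SLE-BDL pigs were above every SLE-sham pig. ARHGEF5, a guanine nucleotide exchange factor, had the smallest adjusted p of the genes that rose together with EGLN3, at a log2 fold change of 1.06 ± 0.17 (adjusted p = 0.000189). PLPP2, a lipid phosphatase, and C2CD2 had log2 fold changes of 1.13 (adjusted p = 0.000422) and 1.06 (adjusted p = 0.000338). The call of ARHGEF5 was lost without SLE-BDL replicate 7 or SLE-sham replicate 7, at log2 fold changes of 0.94 to 0.99. The call of C2CD2 was lost without SLE-BDL replicates 4 or 5 or SLE-sham replicate 2, at log2 fold changes of 0.88 to 0.99. In the model with the identifier block, C2CD2 was at 0.73 (adjusted p = 0.00472) and ARHGEF5 at 0.99 (adjusted p = 0.000293). After removal of the 5 pigs with the unshared number, C2CD2 was at 0.70 (adjusted p = 0.0266).

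Of 45 tested inflammatory genes 3 rose, against 1.20% of all genes, and none fell, with a median of 0.04. CXCL14, a chemokine of epithelia and fibroblasts (chromosome 2, 137803988 to 137813118), ranged from 3.91 to 17.3 CPM (median 9.74) in SLE-sham pigs and 11.9 to 68.6 CPM (median 34) in SLE-BDL pigs (log2 fold change 1.80 ± 0.33 (SE), adjusted p = 0.00075). CXCL8, which attracts neutrophils, lay at 1.09 to 5.65 CPM (median 2.65) in SLE-sham pigs and 3.9 to 23 CPM (median 11.7) in SLE-BDL pigs (log2 fold change 2.004 ± 0.56 (SE), adjusted p = 0.0281). PTGS2, the inducible cyclooxygenase, ranged from 0.618 to 2.9 CPM (median 2) in SLE-sham pigs and 1.45 to 11.8 CPM (median 3.52) in SLE-BDL pigs (log2 fold change 1.47 ± 0.36 (SE), adjusted p = 0.0111). In these 3 genes 8 or 9 SLE-BDL pigs were above every SLE-sham pig. The call of CXCL8 was lost without SLE-BDL replicate 9 or SLE-sham replicates 1 or 2, at log2 fold changes of 1.87 to 1.92. Without the 5 pigs of the unshared number the value of CXCL8 was 2.20 (adjusted p = 0.0537). IL11 and LIF, cytokines that signal through gp130 and were chosen after their values were seen, had log2 fold changes of 2.75 (adjusted p = 0.0138) and 1.45 (adjusted p = 0.0422), and LIF was called in 7 of 21 fits that leave out 1 pig. With the identifier block 5 of the 45 rose, since CXCL2, a chemokine for neutrophils, was then at 1.66 (adjusted p = 0.0265) and TNFRSF12A, the receptor of TWEAK, at 1.07 (adjusted p = 0.015), against 1.298 (adjusted p = 0.0901) and 1.10 (adjusted p = 0.0618) without it. TNF, IL1B, IL10 and CCL2 had values of -0.82, 0.47, -0.61 and 0.62 without passing the threshold. The interferon-stimulated genes had a median of 0.38 with none called, of -0.06 to 0.90 when each pig was left out in turn, and of -0.40 with the identifier block.

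Of 11 tested neutrophil markers 2 rose, against 1.20% of all genes. MPO, the myeloperoxidase of neutrophil granules, lay at 0.409 to 1.95 CPM (median 0.683) in SLE-sham pigs and 0.868 to 4.48 CPM (median 2.13) in SLE-BDL pigs (log2 fold change 1.61 ± 0.41 (SE), adjusted p = 0.0132), and FCN1, a ficolin of neutrophils and monocytes, at 1.97 to 4.31 CPM (median 2.66) in SLE-sham pigs and 1.33 to 20.8 CPM (median 4.72) in SLE-BDL pigs (log2 fold change 1.28 ± 0.33 (SE), adjusted p = 0.0138). With the identifier block the value of MPO was 1.10 (adjusted p = 0.117). The log2 fold change of FCN1 was 0.96 (adjusted p = 0.061) without SLE-BDL replicate 6. The list had a median of 0.84, which was 0.55 with the identifier block and 0.39 in the other 6 SLE-BDL pigs, and the summed CPM of its genes was 13.8 to 43.8 CPM (median 24.7) in SLE-sham and 21.9 to 67.7 CPM (median 39) in SLE-BDL pigs. Among 23 Kupffer cell and macrophage markers (median -0.04) 2 passed, in opposite directions, against 1.20% of all genes that rose and 0.290% that fell. MARCO, a scavenger receptor, ranged from 8.69 to 20.6 CPM (median 11.8) in SLE-sham pigs and 8.91 to 49.7 CPM (median 23.6) in SLE-BDL pigs (log2 fold change 1.01 ± 0.25 (SE), adjusted p = 0.0102), and CLEC4F, a lectin of resident Kupffer cells, at 17.3 to 135 CPM (median 68.6) in SLE-sham pigs and 12.2 to 82.3 CPM (median 29.5) in SLE-BDL pigs (log2 fold change -1.12 ± 0.34 (SE), adjusted p = 0.0422). They were called in 11 of 21 and 9 of 21 fits that leave out 1 pig. The T and NK cell markers had a median of -0.42 and a summed CPM of 34 to 71.1 CPM (median 47.9) in SLE-sham and 27.8 to 52 CPM (median 33.7) in SLE-BDL pigs. CD4 and LCK were lower by less than 2-fold, at -0.61 (adjusted p = 0.016) and -0.86 (adjusted p = 0.0449), and LCK was at -0.80 (adjusted p = 0.101) with the identifier block. Under the block MARCO was at 0.99 (adjusted p = 0.0223). When the 5 pigs of the unshared number were left out, MPO was at 1.27 (adjusted p = 0.161), MARCO at 0.87 (adjusted p = 0.0951), LCK at -0.98 (adjusted p = 0.104) and CLEC4F at -1.37 (adjusted p = 0.0592).

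No acute phase gene of the list rose. HP, the hemoglobin-binding haptoglobin, passed the adjusted p at less than 2-fold. It lay at 2082 to 6479 CPM (median 3926) in SLE-sham pigs and 2954 to 21665 CPM (median 5583) in SLE-BDL pigs (log2 fold change 0.94 ± 0.28 (SE), adjusted p = 0.0399), and at 0.73 (adjusted p = 0.145) with the identifier block. The 31 tested acute phase and plasma protein genes had a median of 0.16, and ALB ranged from 43688 to 63124 CPM (median 54353) in SLE-sham pigs and 20386 to 66346 CPM (median 42469.9) in SLE-BDL pigs (log2 fold change -0.33 ± 0.15 (SE), adjusted p = 0.234). The table held CRP, the C-reactive protein, in 2 rows, and 1 of them (chromosome 4, 90793361 to 90801020), chosen after its values were seen, lay at 3.34 to 10.5 CPM (median 6.47) in SLE-sham pigs and 2.95 to 131 CPM (median 13.9) in SLE-BDL pigs (log2 fold change 1.86 ± 0.49 (SE), adjusted p = 0.019). Without SLE-BDL replicate 7 the log2 fold change of this row was 1.05 (adjusted p = 0.155). The values of the other CRP row are not given here. LOC106504547, a protein-coding gene beside the serpin A3 genes on chromosome 7, also chosen after its values were seen, ranged from 58.1 to 851 CPM (median 187) in SLE-sham pigs and 145 to 7739 CPM (median 649.8) in SLE-BDL pigs (log2 fold change 2.54 ± 0.77 (SE), adjusted p = 0.0419), and at 2.54 (adjusted p = 0.0838) with the identifier block. Reads of such near-identical genes may be shared between them, so these values are uncertain. Of 37 coagulation and complement genes none passed the adjusted p (median -0.01). Without those 5 pigs of the unshared number, LOC106504547 was at 2.73 (adjusted p = 0.0857) and HP at 0.89 (adjusted p = 0.14). On leaving out SLE-BDL replicate 7 the log2 fold change of LOC106504547 was 1.87 (adjusted p = 0.132), and the gene was called in 10 of 21 fits that leave out 1 pig.

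Genes of oxygen sensing that rose were EPO and EGLN3. EPO, which encodes erythropoietin and is made in the liver before birth (chromosome 3, 8620508 to 8622936), lay at 0.136 to 0.659 CPM (median 0.359) in SLE-sham pigs and 0.47 to 22.5 CPM (median 1.14) in SLE-BDL pigs (log2 fold change 3.52 ± 0.58 (SE), adjusted p = 0.000225). The highest value was that of SLE-BDL replicate 5, without which the log2 fold change of EPO was 2.72 (adjusted p = 0.00129), and 8 SLE-BDL pigs were above every SLE-sham pig. EGLN3, a prolyl hydroxylase that HIF induces, ranged from 1.63 to 7.32 CPM (median 3.62) in SLE-sham pigs and 4.4 to 54.8 CPM (median 15.7) in SLE-BDL pigs (log2 fold change 2.15 ± 0.34 (SE), adjusted p = 0.000189), with 10 SLE-BDL pigs above every SLE-sham pig. FGF23, the hormone that lowers blood phosphate, lay at 0.725 to 6.09 CPM (median 3.16) in SLE-sham pigs and 1.13 to 69.4 CPM (median 5.26) in SLE-BDL pigs (log2 fold change 2.18 ± 0.50 (SE), adjusted p = 0.00608), and at 1.25 (adjusted p = 0.184) with the identifier block. The log2 fold change of FGF23 was 1.51 (adjusted p = 0.0506) without SLE-BDL replicate 9. SLC16A3, which exports lactate, ranged from 1.22 to 3.23 CPM (median 1.7) in SLE-sham pigs and 1.2 to 29.5 CPM (median 5.74) in SLE-BDL pigs (log2 fold change 2.18 ± 0.37 (SE), adjusted p = 0.000338), with 7 SLE-BDL pigs above and 1 below every SLE-sham pig. LDHA, the lactate dehydrogenase, was higher by less than 2-fold (log2 fold change 0.95 ± 0.20 (SE), adjusted p = 0.00226). The 27 tested genes of hypoxia, iron and metals had 3 rises (1.20% of all genes rose), no fall (0.290% fell) and a median of 0.08, and VEGFA, ADM, PDK1 and CA9, further HIF targets, had log2 fold changes of 0.18, 0.18, 0.13 and 0.03. STC1, a secreted glycoprotein chosen after its values were seen, lay at 0.549 to 1.85 CPM (median 1.31) in SLE-sham pigs and 0.985 to 29.2 CPM (median 2.62) in SLE-BDL pigs (log2 fold change 2.11 ± 0.40 (SE), adjusted p = 0.00101). Without SLE-BDL replicate 9 the log2 fold change of STC1 was 1.31 (adjusted p = 0.0135). All 14 tested erythroid markers had positive values with a median of 0.82 and none called, and their median was 0.00 with the identifier block and 0.24 in the other 6 SLE-BDL pigs. Their summed CPM was 237 to 889 CPM (median 469) in SLE-sham and 136 to 1504 CPM (median 587) in SLE-BDL pigs.

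Several metabolic and hormone genes rose with very high values in a few of the ligated pigs. SDS, serine dehydratase, which turns serine into pyruvate (chromosome 14, 38503922 to 38513908), ranged from 1.15 to 7.9 CPM (median 2.33) in SLE-sham pigs and 3.33 to 152 CPM (median 6.04) in SLE-BDL pigs (log2 fold change 3.11 ± 0.59 (SE), adjusted p = 0.00101). SLE-BDL replicates 9, 7 and 5 had 152, 80.8 and 38.1 CPM, and 5 SLE-BDL pigs were above every SLE-sham pig. MFSD2A, a transporter of lysolipids that is induced by fasting, lay at 1.23 to 11.13 CPM (median 2.5) in SLE-sham pigs and 0.289 to 172 CPM (median 3.09) in SLE-BDL pigs (log2 fold change 3.03 ± 0.68 (SE), adjusted p = 0.00522), with 172 CPM in SLE-BDL replicate 7 and 122 in replicate 9. NOCT, a rhythmic phosphatase of nicotinamide dinucleotides, ranged from 1.92 to 10.3 CPM (median 3.45) in SLE-sham pigs and 2.79 to 253 CPM (median 3.65) in SLE-BDL pigs (log2 fold change 2.84 ± 0.63 (SE), adjusted p = 0.00476). The log2 fold change of SDS was 2.30 (adjusted p = 0.00771) without replicate 9, and the log2 fold change of MFSD2A was 2.18 (adjusted p = 0.0357) without replicate 7. The medians of MFSD2A and NOCT differed little between the groups. Without SLE-BDL replicate 9 the log2 fold change of NOCT was 1.08 (adjusted p = 0.207). With the identifier block the value of NOCT was 1.64 (adjusted p = 0.145). ETNPPL, an ethanolamine phosphate lyase, lay at 1.74 to 28 CPM (median 9.22) in SLE-sham pigs and 5.44 to 286 CPM (median 24.2) in SLE-BDL pigs (log2 fold change 2.37 ± 0.53 (SE), adjusted p = 0.00469). When SLE-BDL replicate 5 was left out, the log2 fold change of ETNPPL was 1.76 (adjusted p = 0.0281). IGFBP1, which binds IGF in plasma, ranged from 5.24 to 47.1 CPM (median 33.5) in SLE-sham pigs and 10.1 to 368 CPM (median 57.2) in SLE-BDL pigs (log2 fold change 1.71 ± 0.45 (SE), adjusted p = 0.0171), and at 1.297 (adjusted p = 0.167) with the block. GDF15, a hormone of cell stress, lay at 0.725 to 3.32 CPM (median 1.88) in SLE-sham pigs and 1.04 to 58 CPM (median 3.29) in SLE-BDL pigs (log2 fold change 2.04 ± 0.44 (SE), adjusted p = 0.00343), and ATF3, a stress transcription factor, at 4.88 to 11.8 CPM (median 7.82) in SLE-sham pigs and 6.94 to 69.9 CPM (median 14.4) in SLE-BDL pigs (log2 fold change 1.28 ± 0.33 (SE), adjusted p = 0.0144). MAFF had a log2 fold change of 1.16 (adjusted p = 0.0162), and 0.94 (adjusted p = 0.0509) with the block. The log2 fold change of GDF15 was 0.58 (adjusted p = 0.227) without SLE-BDL replicate 9. Without SLE-BDL replicate 9 the log2 fold change of ATF3 was 0.84 (adjusted p = 0.1). The log2 fold change of MAFF was 0.53 (adjusted p = 0.197) without SLE-BDL replicate 9. The call of IGFBP1 was lost without SLE-BDL replicates 5 or 9, at log2 fold changes of 1.299 to 1.47. In the fit without the 5 pigs, IGFBP1 was at 1.37 (adjusted p = 0.153).

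Enzymes of fatty acid oxidation were lower by less than 2-fold where they passed, as were FBP1 and FBP2 of gluconeogenesis. Of 39 tested genes of fatty acid oxidation and peroxisomes 10 had a positive log2 fold change, 6 were lower past the adjusted p at any fold, against 1.57% of all genes, 1 rose (MFSD2A, described above) and the median was -0.21, against 0.01 over all genes. In the 6 SLE-BDL pigs outside the unshared number the median of the list was -0.03. HADHA, a subunit of the mitochondrial trifunctional protein, ranged from 302 to 478 CPM (median 423) in SLE-sham pigs and 179.5 to 469 CPM (median 252) in SLE-BDL pigs (log2 fold change -0.49 ± 0.14 (SE), adjusted p = 0.0297), with 8 SLE-BDL pigs below every SLE-sham pig. ACADVL, the first dehydrogenase of long chains, and ACSL1, which activates fatty acids, were at -0.51 (adjusted p = 0.0361) and -0.46 (adjusted p = 0.0241). Without the 5 pigs of the unshared number the values of HADHA, ACADVL and ACSL1 were -0.22 (adjusted p = 0.534), -0.29 (adjusted p = 0.455) and -0.31 (adjusted p = 0.291). FBP1, a key enzyme of gluconeogenesis, lay at 338 to 563 CPM (median 445) in SLE-sham pigs and 175 to 387 CPM (median 231) in SLE-BDL pigs (log2 fold change -0.76 ± 0.13 (SE), adjusted p = 0.000402), and 9 SLE-BDL pigs were below every SLE-sham pig. AGXT, the peroxisomal glyoxylate aminotransferase, was at -0.46 (adjusted p = 0.0197), and PLIN5, a lipid droplet protein, at -0.51 (adjusted p = 0.0206). FBP2, a second fructose bisphosphatase, was also lower, at -0.79 (adjusted p = 0.0312) with 7 SLE-BDL pigs below every SLE-sham pig, and at -0.45 (adjusted p = 0.219) with the identifier block. PCK2, PC, G6PC and PCK1, further gluconeogenic enzymes, had values of -0.41, -0.26, 0.30 and 0.07 and did not pass, although PCK2 did with the identifier block (-0.40, adjusted p = 0.0366). The lists of lipogenesis and sterol synthesis, the urea cycle and the breakdown of branched-chain amino acids had medians of -0.09, -0.11 and -0.14 and held no gene past both thresholds. Of the 6 lower genes of fatty acid oxidation, HADHA and 3 others did not pass with the identifier block, HADHB at -0.25 (adjusted p = 0.122), SLC25A20 at -0.26 (adjusted p = 0.11) and ETFDH at -0.31 (adjusted p = 0.0916). In the 6 SLE-BDL pigs outside the unshared number, HADHB was at -0.20, SLC25A20 at -0.14, ETFDH at -0.23 and FBP2 at -0.52 against SLE-sham pigs. With the number as a block, AGXT was at -0.37 (adjusted p = 0.0536), HADHA at -0.38 (adjusted p = 0.071) and PLIN5 at -0.41 (adjusted p = 0.0521). After removal of the 5 pigs with the unshared number, AGXT was at -0.29 (adjusted p = 0.34) and PLIN5 at -0.28 (adjusted p = 0.396).

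Cytochrome P450 and other phase I genes varied widely between pigs. Of 31 tested, CYP2D25, a member of a large drug-metabolizing family whose copies can share reads, rose and FMO5, a flavin monooxygenase, fell, with a median of 0.04, against 1.20% of all genes that rose and 0.290% that fell. CYP2D25 ranged from 246 to 806 CPM (median 343) in SLE-sham pigs and 293 to 1856 CPM (median 568.4) in SLE-BDL pigs (log2 fold change 1.06 ± 0.29 (SE), adjusted p = 0.0258), and at 0.73 (adjusted p = 0.0999) with the identifier block. The call of CYP2D25 was lost without SLE-BDL replicates 4, 5 or 7 or SLE-sham replicate 4, at log2 fold changes of 0.86 to 0.99. FMO5 lay at 19.2 to 85.2 CPM (median 56.4) in SLE-sham pigs and 8.89 to 41.3 CPM (median 26.7) in SLE-BDL pigs (log2 fold change -1.01 ± 0.31 (SE), adjusted p = 0.0431), and was called in 8 of 21 fits that leave out 1 pig. AOX1, the aldehyde oxidase, was lower by less than 2-fold (log2 fold change -0.84 ± 0.24 (SE), adjusted p = 0.0335). CYP2E1 and CYP2C32 had log2 fold changes of -1.51 and 1.91 and did not pass the threshold. The summed CPM of the list was 5672 to 9906 CPM (median 7581) in SLE-sham and 4778 to 17450.0 CPM (median 9107) in SLE-BDL pigs. Of 31 tested genes of conjugation and glutathione none passed both thresholds (median -0.03). Once the number was blocked, AOX1 was at -0.83 (adjusted p = 0.0553). When the 5 pigs of the unshared number were left out, CYP2D25 was at 0.87 (adjusted p = 0.177) and FMO5 at -0.99 (adjusted p = 0.187).

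Both subunits of the ATP-sensitive potassium channel of pancreatic beta cells rose in the liver, from very few counts in SLE-sham pigs. ABCC8, the sulfonylurea receptor (chromosome 2, 41666974 to 41754624), ranged from 0 to 0.34 CPM (median 0.0897) in SLE-sham pigs and 0.0609 to 56.6 CPM (median 1.4) in SLE-BDL pigs (log2 fold change 6.85 ± 1.71 (SE), adjusted p = 0.0125). Of the SLE-sham pigs 8 had 3 counts or fewer and 3 had none, so the size of the change depends on the prior count. SLE-BDL replicates 1, 4 and 3 had 56.6, 51.8 and 39.3 CPM, the same 3 pigs that were highest in CYP7A1, and the other 8 SLE-BDL pigs lay at or under 5.41 CPM. With the identifier block the log2 fold change was 3.16 (adjusted p = 0.229), and without the 5 pigs of the unshared number it was 3.94 (adjusted p = 0.35). KCNJ11, the pore subunit, lay at 0 to 0.307 CPM (median 0.0635) in SLE-sham pigs and 0 to 1.22 CPM (median 0.544) in SLE-BDL pigs (log2 fold change 2.55 ± 0.63 (SE), adjusted p = 0.0105), with 8 SLE-BDL pigs above every SLE-sham pig. Of 19 genes of the list 7 had enough counts to be tested, and 2 of these rose, against 1.20% of all genes. In the whole list, 2 of the 19 had no count in any of the 21 pigs. IAPP and PDX1, which define beta cells, had log2 fold changes of 0.03 and -0.02. Of 13 exocrine pancreas markers 2 could be tested, neither was called, and their summed CPM was 1.43 to 4.35 CPM (median 2.53) in SLE-sham and 1.28 to 3.52 CPM (median 2.82) in SLE-BDL pigs.

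Further large rises were those of CLEC18C and XIRP1. CLEC18C, a secreted lectin of which the genome holds near copies, ranged from 0.144 to 3.84 CPM (median 1.84) in SLE-sham pigs and 1.4 to 20.6 CPM (median 8.5) in SLE-BDL pigs (log2 fold change 2.19 ± 0.50 (SE), adjusted p = 0.0057), and at 1.64 (adjusted p = 0.114) without the 5 pigs of the unshared number. XIRP1, an actin-binding protein of striated muscle, lay at 0.476 to 2.26 CPM (median 1.03) in SLE-sham pigs and 1.14 to 28.1 CPM (median 4.29) in SLE-BDL pigs (log2 fold change 3.03 ± 0.76 (SE), adjusted p = 0.0125), with 9 SLE-BDL pigs above every SLE-sham pig. The skeletal muscle list also held a gene that fell, TNNI2, a fast troponin, at 12.3 to 69.4 CPM (median 21.9) in SLE-sham pigs and 2.92 to 26.3 CPM (median 16.1) in SLE-BDL pigs (log2 fold change -1.14 ± 0.34 (SE), adjusted p = 0.0416), and called in 11 of 21 fits that leave out 1 pig. The summed CPM of that list was 28.8 to 93.3 CPM (median 41.4) in SLE-sham and 27.9 to 49.3 CPM (median 43.1) in SLE-BDL pigs, and the part of muscle RNA in either gene was not tested. GABRP, a subunit of GABA receptors found in epithelia and chosen after its values were seen, ranged from 0.0581 to 0.952 CPM (median 0.388) in SLE-sham pigs and 0.52 to 11.9 CPM (median 3.94) in SLE-BDL pigs (log2 fold change 3.53 ± 0.85 (SE), adjusted p = 0.00997), with 10 SLE-BDL pigs above every SLE-sham pig. In the model with the identifier block, TNNI2 was at -0.98 (adjusted p = 0.101). Without those 5 pigs of the unshared number, GABRP was at 3.31 (adjusted p = 0.0511) and TNNI2 at -1.52 (adjusted p = 0.0518).

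Fewer genes fell than rose. LIN28B, an RNA-binding protein of fetal liver that blocks let-7 maturation (chromosome 1, 71173291 to 71296131), lay at 1.59 to 7.39 CPM (median 3.73) in SLE-sham pigs and 0.725 to 2.51 CPM (median 1.34) in SLE-BDL pigs (log2 fold change -1.56 ± 0.29 (SE), adjusted p = 0.00075). The groups overlapped, with 6 SLE-BDL pigs below every SLE-sham pig, and the gene was called in all 21 fits that leave out 1 pig. CORIN, a protease that activates natriuretic peptides, ranged from 7.87 to 19.7 CPM (median 14.4) in SLE-sham pigs and 4.02 to 11.9 CPM (median 6.84) in SLE-BDL pigs (log2 fold change -1.01 ± 0.17 (SE), adjusted p = 0.000338), and TRPC6, a cation channel, at 2.8 to 7.83 CPM (median 4.8) in SLE-sham pigs and 0.831 to 3.53 CPM (median 2.35) in SLE-BDL pigs (log2 fold change -1.06 ± 0.19 (SE), adjusted p = 0.000519). CORIN and TRPC6 were just over 2-fold lower and were called in 14 of 21 and 17 of 21 fits that leave out 1 pig. MT4, a metallothionein with near copies, CARMIL3, an actin-capping regulator, and ATP1B2, a subunit of the sodium pump, had log2 fold changes of -1.41 (adjusted p = 0.0397), -1.04 (adjusted p = 0.0199) and -1.03 (adjusted p = 0.0485), and were called in 7, 14 and 4 of these 21 fits. Under the identifier block MT4 was at -1.19 (adjusted p = 0.155) and ATP1B2 at -0.95 (adjusted p = 0.0626). NRN1, a neuritin chosen after its values were seen, ranged from 0.112 to 6.73 CPM (median 2.91) in SLE-sham pigs and 0 to 0.609 CPM (median 0.173) in SLE-BDL pigs (log2 fold change -3.91 ± 0.77 (SE), adjusted p = 0.00159), with 5 SLE-BDL pigs below every SLE-sham pig. Under the block CORIN was at -0.97 (adjusted p = 0.000568) and CARMIL3 at -0.86 (adjusted p = 0.044). In the fit without the 5 pigs, CORIN was at -0.98 (adjusted p = 0.00609), ATP1B2 at -1.35 (adjusted p = 0.0526), CARMIL3 at -0.67 (adjusted p = 0.321) and MT4 at -1.15 (adjusted p = 0.288).

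Seen over all 28 pathway lists, the medians furthest above that of all genes were in the cholangiocyte (0.59), matrix enzyme (0.54) and matrix (0.47) lists, and the fatty acid oxidation list had the lowest (-0.21). When each pig was left out in turn, these medians ranged over 0.53 to 0.64, 0.43 to 0.59, 0.35 to 0.55 and -0.25 to -0.17. With the identifier block they were 0.60, 0.54, 0.52 and -0.16, and in the 6 SLE-BDL pigs outside the unshared number 0.72, 0.44, 0.41 and -0.03, so the fatty acid oxidation median lay near that of all genes there. The cell cycle list, which holds the markers of dividing cells, had a median of 0.02 and no gene past the adjusted p. Among cell type lists, the hepatocyte (-0.05), Kupffer cell (-0.04) and sinusoidal endothelial (-0.03) medians lay near that of all genes. The neutrophil and erythroid medians, 0.84 and 0.82, lay above it and the T and NK cell median, -0.42, below it. With the block these 3 were 0.55, 0.00 and -0.32, and in the other 6 SLE-BDL pigs 0.39, 0.24 and -0.36.

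**Figure D3:**
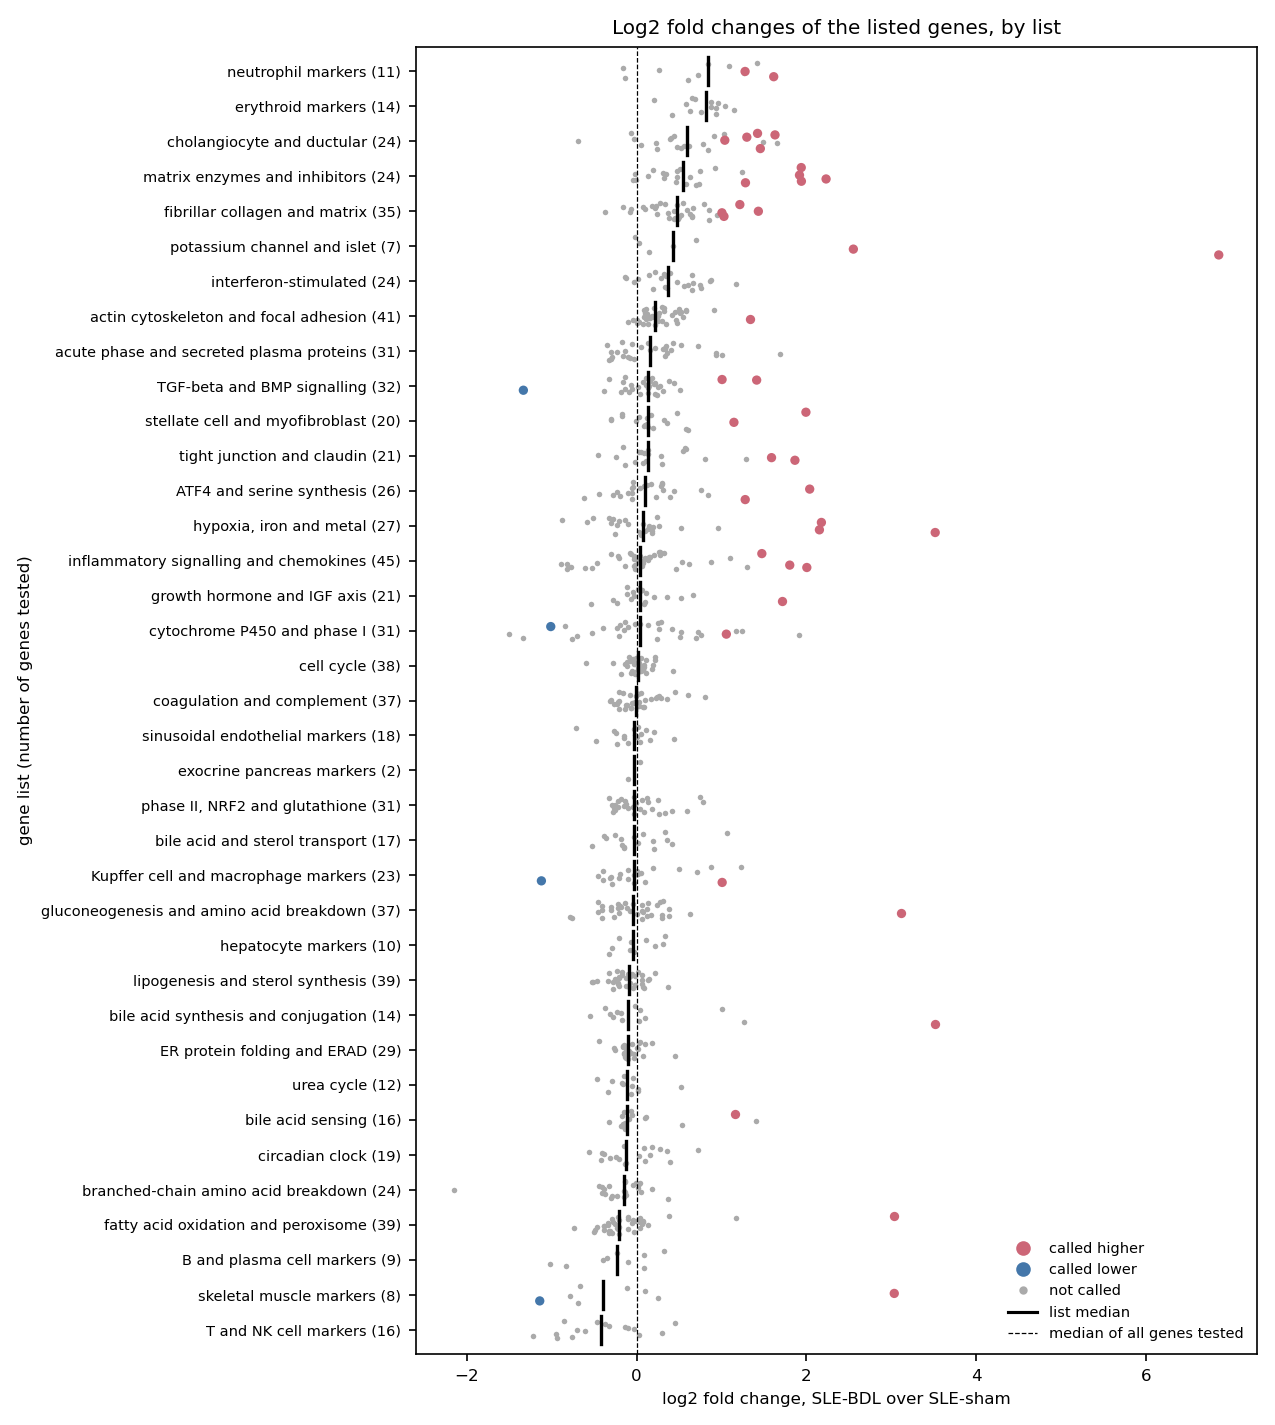
Log2 fold change of SLE-BDL over SLE-sham for every tested gene of each list, with 1 point per gene, a bar at the median of each list and colours for genes that rose or fell. The cholangiocyte, matrix and matrix enzyme medians lie at 0.59, 0.47 and 0.54, and that of all genes at 0.01.

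The genes that rose were not led by the same ligated pig. For each of the 194 genes that rose, the SLE-BDL pig with the highest CPM was noted. It was replicate 9 in 49 genes, replicate 7 in 32, replicate 1 in 30, replicate 2 in 27, replicate 5 in 21 and replicate 6 in 16, and each of the other 5 pigs led in 6 genes or fewer. The 47 genes that fell had their lowest SLE-BDL value in any pig between 0 (replicate 11) and 7 times (replicates 4 and 5). SLE-BDL replicates 9 and 7 had the highest values of SDS and MFSD2A, replicates 6 and 2 those of TIMP1, and replicates 1, 3 and 4 those of ABCC8 and CYP7A1. Replicate 7 also had the highest summed hepatocyte markers of the ligated pigs and replicate 2 the lowest. Without SLE-BDL replicate 9, 161 genes were called and 87 of the 241 were no longer among them, and without replicate 11, 278 were called. Of the 241 genes, 101 (88 of them higher) were called in every one of the 21 fits that leave out 1 pig.

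**Figure D4:**
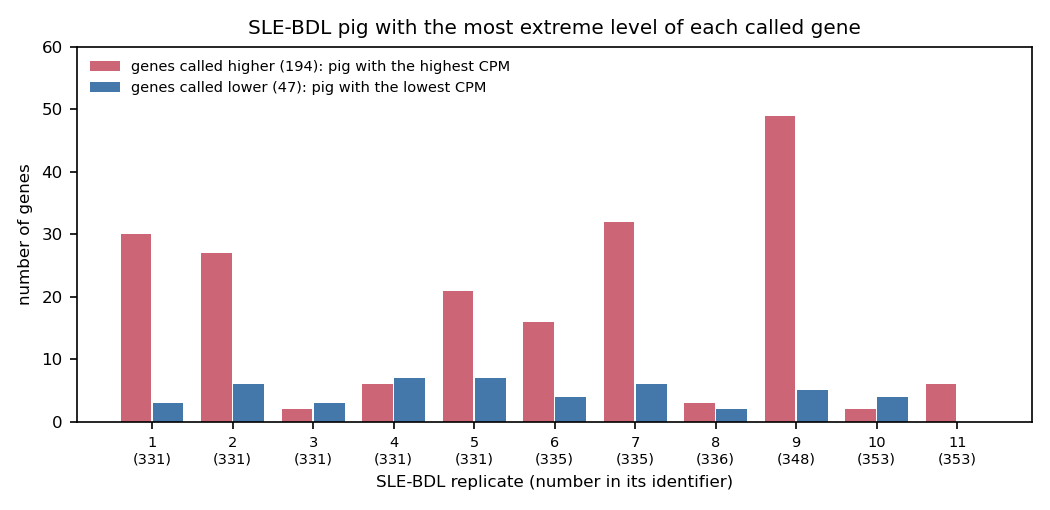
Number of genes for which each SLE-BDL pig had the highest CPM of its group, among the 194 genes that rose, or the lowest, among the 47 that fell. Replicate 9 led 49 of the rises, and replicates 3 and 10 led 2 each.

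The 5 ligated pigs of the unshared number were also set against sham pigs apart from the other 6. Against the same 10 SLE-sham pigs, 289 genes were called in the 5 pigs (1.78%) and 179 in the other 6 (1.10%). The 2 comparisons share their sham pigs. Tested directly against each other, the 2 sets of ligated pigs differed in 116 genes at any fold (0.716%), of which 7 were among the 241, 5 of them higher and 2 lower in the 5 pigs. RDH16, a retinol dehydrogenase, lay at 90.5 to 151 CPM (median 136) in the 5 pigs and 19.3 to 90.0 CPM (median 42) in the other 6, a log2 difference of 1.497 (adjusted p = 0.0358). LGALS2, a galectin of gut epithelium, and RIPPLY3 were also higher in the 5 pigs, by 1.58 (adjusted p = 0.0244) and 5.27 (adjusted p = 0.0496), the latter from very few counts. Without SLE-BDL replicate 2 the log2 fold change of RIPPLY3 was 3.13 (adjusted p = 0.181). MFSD2A was lower in the 5 pigs, with a log2 difference of -3.30 (adjusted p = 0.0478), at 1.97 to 16.2 CPM against 0.289 to 172 CPM. These genes were chosen after their values were seen, except MFSD2A. Against sham pigs, RDH16, LGALS2 and RIPPLY3 had log2 fold changes of 1.09, 1.04 and 5.39 in all 11 ligated pigs and were called (RDH16 in 13 and LGALS2 in 10 of the 21 fits that leave out 1 pig), but were at 0.43 (adjusted p = 0.422), 0.37 (adjusted p = 0.575) and 0.96 (adjusted p = 0.735) with the identifier block and at 0.21 (adjusted p = 0.839), 0.11 (adjusted p = 0.925) and 1.19 (adjusted p = 0.822) without the 5 pigs. For CYP7A1 the log2 fold change against sham pigs was 4.18 (adjusted p = 0.000369) in the 5 pigs and 2.52 (adjusted p = 0.0562) in the other 6, and for CLDN10 1.92 (adjusted p = 6.69e-05) and 1.24 (adjusted p = 0.0129). The number of genes called in the direct test rested on single pigs, since it was 18 without SLE-BDL replicate 2, 22 without replicate 1, 41 without replicate 7, 65 without replicate 9 and 68 without replicate 3.

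The same ligation was followed by 549 calls in ENT pigs (3.39%) and 612 in MLE pigs (3.78%). The ENT count, the overlap with it and the ENT log2 fold changes given here and below include the 2 matching libraries of opposite labels. Without these libraries 730 genes were called in ENT pigs (4.5%). Counted in either direction, 98 of the 241 SLE calls were also called in ENT pigs with the 2 libraries in the fit, and 138 of 273 without them. Of the 241 genes called in SLE pigs, 94 were called in the same direction in ENT pigs, which is 39.0% of the SLE calls and 17.1% of the ENT calls, and 131 in MLE pigs, which is 54.4% and 21.4%. CLDN10 had log2 fold changes of 1.59 in SLE, 1.64 in ENT and 1.48 in MLE pigs, KRT7 of 1.46, 1.86 and 1.83, and CYP7A1 of 3.51, 2.52 and 2.84. The difference between the SLE and the ENT response passed the adjusted p in 377 genes at any fold (2.33%), of which 22 were among the 241. It did so in 731 genes without the 2 matching ENT libraries and in 210 without the 5 pigs of the unshared number. All 22 were kept without the 2 matching ENT libraries, when 39 of the 241 passed. How many of the 22 pass without the 5 pigs of the unshared number is not given here. The differences of single genes given below include those 5 pigs, and their dependence on them was not tested.

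EPO had log2 fold changes of 3.52 in SLE and -1.60 in ENT and 2.40 in MLE pigs, and the SLE and ENT responses differed by 5.12 (adjusted p = 0.000408). The CRP row described above had 1.86 in SLE and -3.27 in ENT and -0.22 in MLE pigs, a difference from ENT of 5.13 (adjusted p = 1.68e-05). CDO1, which starts the breakdown of cysteine, had 1.18 in SLE and -1.01 in ENT and -0.10 in MLE pigs, a difference of 2.18 (adjusted p = 0.00283). SOCS1, a feedback inhibitor of cytokine receptors, lay at 5.42 to 10.7 CPM (median 7.82) in SLE-sham pigs and 4.29 to 71.3 CPM (median 7.68) in SLE-BDL pigs (log2 fold change 1.06, adjusted p = 0.0312), with close medians. With SLE-BDL replicate 9 left out, the log2 fold change of SOCS1 was 0.44 (adjusted p = 0.332), and SOCS1 was called in 16 of 21 fits that leave out 1 pig. Its responses differed by 1.73 (adjusted p = 0.0149), and those of NOCT by 3.09 (adjusted p = 0.0399). HP, at less than 2-fold in SLE pigs, had 0.94 in SLE and -0.99 in ENT and -1.38 in MLE pigs, and the SLE response differed from that of ENT by 1.93 (adjusted p = 0.00293) and from that of MLE by 2.32 (adjusted p = 0.00388). The response of CLDN7 was smaller in SLE than in ENT pigs, with a difference of -1.24 (adjusted p = 0.0245). CDO1, SOCS1, HP and CLDN7 were chosen after their values were seen. The SLE and the MLE responses differed in 43 genes at any fold (0.265%), of which 1, the lncRNA LOC106504875, was among the 241, in 82 genes without the 2 matching ENT libraries, of which 5 were, and in 21 genes without the 5 pigs. Without SLE-BDL replicate 5, the log2 fold change of CDO1 was 0.92 (adjusted p = 0.0779), and 0.95 (adjusted p = 0.0757) without replicate 9. With the number as a block, CDO1 was at 0.96 (adjusted p = 0.0598) and SOCS1 at 0.79 (adjusted p = 0.148).

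**Figure D5:**
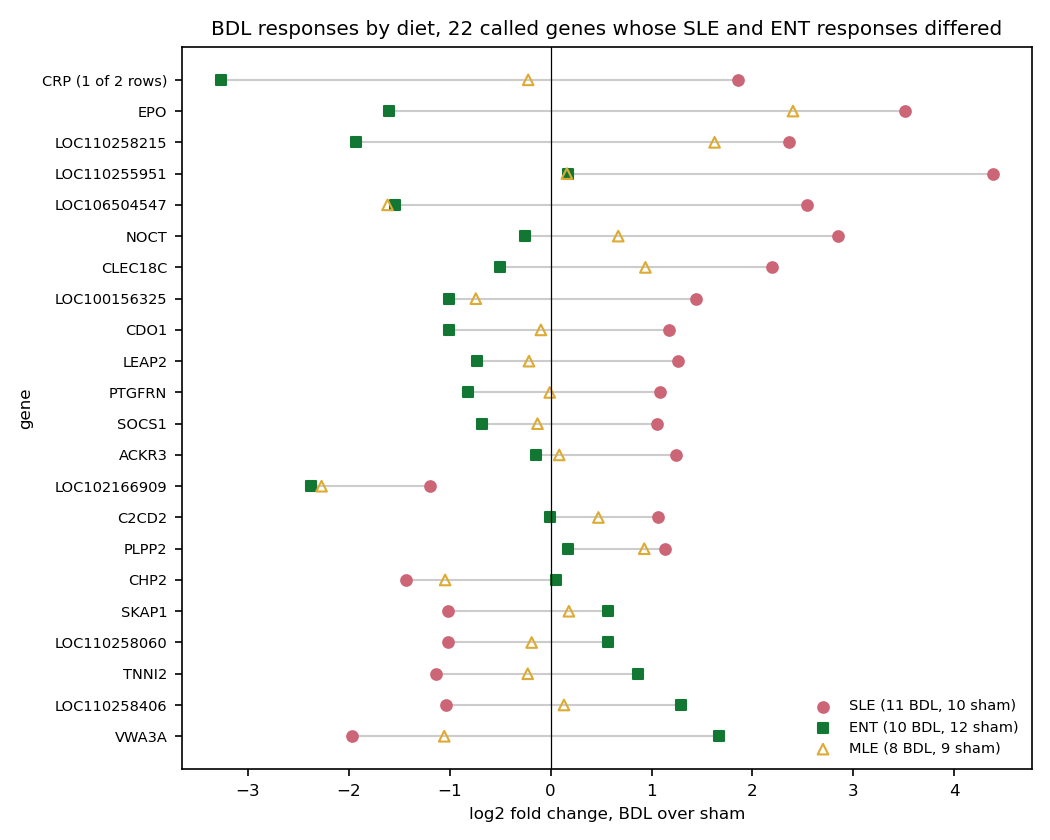
Log2 fold change of BDL over sham in SLE, ENT and MLE pigs for the 22 genes that were called in SLE pigs and whose SLE and ENT responses differed at an adjusted p under 0.05. EPO, at 3.52 in SLE, was at -1.60 in ENT and 2.40 in MLE pigs. The SLE values include the pigs of the unshared number.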

How the data were processed

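Liver RNA of 60 pigs was sequenced, and 21 libraries (11 SLE-BDL and 10 SLE-sham) were compared. The authors trimmed reads with fastp, aligned them to Sscrofa11.1 with HISAT2 2.0.5 and deposited the featureCounts 1.5.0-p3 counts per gene, as whole numbers without normalization. The strand setting and the handling of reads with several matches are not given in the sources used here, so overlapping, antisense and near-identical genes are uncertain. StringTie 1.3.3 is also named in the submitters' processing notes. The 24 features without a gene name took 0.0084% to 0.0191% of an SLE library and were left out. Positions are those of the deposited table.

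Groups came from the diet and surgery labels. Counts of all 60 pigs were fitted in R 4.3.3 with edgeR 4.0.16 in 1 model of 6 groups (filterByExpr, TMM, estimateDisp, glmQLFit with robust=TRUE, glmQLFTest). The SE is the log2 fold change divided by the root of F, so it holds counting error and the spread between pigs. Differences between diets were contrasts in the same fit. Genes were called at an adjusted p under 0.05 and over 2-fold, the thresholds of the study, whose methods name DESeq2. DESeq2 1.42.0 was an alternative, as were fits of the 21 pigs alone, RLE normalization, other filters on low counts, blocks for the replicate number and for the identifier number, fits without the 5 pigs of the number that no SLE-sham pig carries, and each SLE pig left out in turn. Leaving out the 2 matching ENT libraries, and leaving out the 5 pigs in the comparisons between diets, were chosen after the data were seen. The scripts were checked on simulated counts. Python 3.11.15 with pandas 2.3.3, numpy 2.4.6 and matplotlib 3.10.9 made summaries and figures.

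Named are the 12 largest rises, 8 largest falls and 10 smallest adjusted p among called genes whose mean log2 CPM (prior count 2) was at least 1 and that have a symbol, up to 4 called genes of each list by adjusted p at any level, the genes the study measured by qPCR, and list members needed to read a list. The gene lists, 28 for pathways and 9 for cell types, hold 940 entries, of which 919 have a row in the table, 14 of them under another name. Members and lists were chosen with earlier results of these data known. No set test was run. No sequence tables were used here, and a few genes are not reported here. All p measure the spread between libraries within groups, which the main model estimated over all 60 libraries.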

Additional observations from a re-analysis of the deposited data

Results flagged for a closer look

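The response to ligation in SLE pigs differed from that in ENT pigs, by the interaction term of edgeR with Benjamini-Hochberg adjustment over all genes tested, in 15 of the 122 genes examined singly, against 2.33% of all genes. The log2 difference, SLE minus ENT response, was 5.12 for EPO, 5.13 for the CRP row, 4.08 for LOC106504547, 3.09 for NOCT, 2.69 for CLEC18C, 2.18 for CDO1, 1.93 for HP, 1.73 for SOCS1, 1.17 for LDHA, 1.07 for C2CD2 and 0.96 for PLPP2. It was negative for CLDN7 (-1.24), AGXT (-0.81), LCK (-1.40) and TNNI2 (-2.002). HP also differed between SLE and MLE pigs, by 2.32. HP, AGXT, LCK, LDHA and CLDN7 changed by less than 2-fold in SLE pigs, and several of these genes were named because of this difference. Many of the 122 were chosen by their values in SLE-BDL against SLE-sham pigs, which are part of the difference tested. The share among them therefore cannot be read against that of all genes.

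In SLE-sham pigs 8 of the 122 genes examined singly had 1 pig far from the other 9, with the gap to the nearest pig above Dixon's value of 0.466 times the range of the group. Gap and range were taken on log2 CPM (prior count 2), while the values of single pigs below are CPM. Chance gives about 1 in 20 such groups. The gap was 0.695 of the range for IGFBP1, where replicate 3 had 5.24 CPM against 24.2 to 47.1 CPM. It was 0.519 for GDF15, with 0.725 CPM in replicate 2 against 1.63 to 3.32 CPM, and 0.557 for CTGF, with 7.18 CPM in the same pig against 11.5 to 16.6 CPM. For ANXA4 it was 0.471, with 16.7 CPM in replicate 1 against 25.7 to 41.7 CPM. For LTBP2 it was 0.525, with 3.88 CPM in replicate 6 against 9.25 to 20.1 CPM. For MPO, where replicate 5 was the highest, at 1.95 CPM against 0.409 to 0.899 CPM, it was 0.518. CDO1 (0.506, replicate 5) and LGALS2 (0.568, replicate 7) each had 1 low pig. ANXA4, LTBP2 and MPO were called in all 21 fits that leave out 1 pig.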

How the results depend on the processing

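In SLE-BDL against SLE-sham livers 241 genes were called. DESeq2 on all 60 pigs called 277, of which 237 were among the 241, RLE normalization 239 (238 among them), no filter on low counts 229 (187) and the identifier block 221 (161). The count moved most with edgeR on the 21 SLE pigs alone (134, of which 123 were among the 241), with a filter of at least 10 counts in every SLE pig (110, all among them), with only the pigs whose number is in both groups and the identifier block (144, of which 101) and at any fold change (736). Leaving out each SLE pig in turn gave 161 to 278. Replicate numbers are shared by the groups in 10 pairs, which deviated from their group means with correlations of -0.161 to 0.151 (3 over 0.1), so they were not taken as a pairing, and with the replicate number as a block 219 genes were called, 199 of them among the 241. The 12 genes without overlap were 12 with RLE size factors and 16 with the 2 libraries of 1 identifier summed, which called 214 genes.

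The SLE and ENT responses differed in 377 genes, in 210 without the 5 pigs of the unshared number, in 731 without the 2 matching ENT libraries, in 373 with the replicate block and in 277 to 426 when each pig was left out. DESeq2 gave 537, with 1572 genes left without an adjusted p. The SLE and MLE responses differed in 43 genes, in 118 by DESeq2, in 21 without the 5 pigs, in 82 without the 2 ENT libraries, in 30 with the replicate block and in 24 to 91 when each pig was left out (24 without SLE-BDL replicate 5 or SLE-sham replicate 4, 26 without SLE-sham replicate 1 and 91 without SLE-BDL replicate 6). The 116 genes that differed between the 5 pigs and the other ligated pigs ranged over 18 to 159 in the same way. The cause of these shifts was not tested.

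Among the 122 genes examined singly, a direction changed in ABCB11 alone, from -0.17 to 0.0727 without the 5 pigs of the unshared number and to 0.00019 with only the shared numbers, all far from the threshold. The identifier block ended 25 calls past both thresholds and started 3, and leaving out the 5 pigs ended 30 and started 2. Only the shared numbers with the block ended 37 and started 3, edgeR on the 21 SLE pigs ended 21 and started 1, and the replicate block ended 17. Genes at few counts, such as ABCC8 and RIPPLY3, have a size of change that depth limits.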
